A study of Homo sapiens with 12 samples.

Results

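The genes described here make, store and break down serotonin and related monoamines. They are TPH1, TPH2, DDC, GCH1, PTS, SLC18A1, SLC18A2, MAOA and MAOB, 9 of the 28008 genes in each deposited count table, and they were taken by symbol. They were chosen with their response to doxycycline (DOX) and their level in each cell line already known, so their values in these comparisons are a description and carry no p-value. Where one of them is said to pass the adjusted p threshold or not, this describes the fit and is not a test of that gene.

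Serotonin is made from tryptophan. A tryptophan hydroxylase adds a hydroxyl group with tetrahydrobiopterin as cofactor, and DDC, the aromatic L-amino acid decarboxylase, then removes the carboxyl group. The product is packed into secretory vesicles by a vesicular monoamine transporter and is broken down by monoamine oxidases in the outer membrane of mitochondria. In the gut, enterochromaffin cells carry out this synthesis with TPH1, as do some neuroendocrine tumors, while TPH2 is the hydroxylase of serotonergic neurons.

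RNA-seq was done on 2 human pancreatic neuroendocrine tumor (pNET) lines, QGP-1 and BON-1. Both lines, in vehicle and DOX groups alike, carry tet-MUC1shRNA, an integrated lentiviral cassette from which DOX induces a short hairpin RNA against MUC1, and were selected with puromycin. QGP-1 cells were grown in RPMI medium and BON-1 cells in DMEM/F-12. In each line 3 cultures received 0.1% DMSO as vehicle and 3 received 500 ng/mL DOX, for 7 days, which gave 12 libraries in 4 groups. Libraries with a control hairpin and DOX were not analysed here, so effects of DOX itself and of MUC1 silencing cannot be told apart, and whether each line is a pool or a clone is not given in the sources used here.

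The QGP-1 libraries held 38224144 to 50525926 counts and the BON-1 libraries 15981954 to 28484324. MUC1 checked the labels. It had 251 to 281 counts with vehicle and 32 to 41 with DOX in QGP-1 cells, and 281 to 580 against 23 to 78 in BON-1 cells, with log2 fold changes of -2.91 (SE 0.23) and -2.79 (SE 0.22). The neuroendocrine markers CHGA, CHGB, SYP, ENO2, SCG2 and INSM1 were detected in all 12 libraries. Markers of blood (PTPRC, HBB) did not exceed 9 counts in any library, and of the fibroblast markers COL1A2 and DCN did not exceed 10, while COL1A1 reached 138 in QGP-1 cells. Of the duct markers, KRT19 was at 168 to 204 CPM with vehicle and 268 to 348 with DOX in BON-1 cells, and at 14.4 to 19.4 and 10.1 to 19.5 CPM in QGP-1 cells. SOX9 was at 116 to 129 CPM with vehicle and 140 to 163 with DOX in BON-1 cells, and at 63.7 to 80.4 and 59.2 to 70.6 CPM in QGP-1 cells. The acinar marker PRSS1 was lower with DOX, at 82.5 to 151 CPM with vehicle and 28.9 to 40.0 with DOX in QGP-1 cells and at 34.8 to 44.7 and 19.2 to 26.7 CPM in BON-1 cells. The part of these markers in the results was not tested.

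The promoters of TPH1 and DDC are shown because these enzymes catalyse consecutive steps and their transcripts took different courses with DOX. Each sequence covers the 250 bases before an annotated start in RefSeq (GRCh38.p14), where 7 of the 9 genes matched an entry and GCH1 and SLC18A1 did not. TPH1 (chr11:18046270-18046519) and both DDC starts (chr7:50565406-50565655 for start 1 and chr7:50561072-50561321 for start 2) lie on the minus strand and are printed 5′ to 3′ in the direction of transcription. Capitals mark the CCAAT box, which stands here on the opposite strand.
TPH1: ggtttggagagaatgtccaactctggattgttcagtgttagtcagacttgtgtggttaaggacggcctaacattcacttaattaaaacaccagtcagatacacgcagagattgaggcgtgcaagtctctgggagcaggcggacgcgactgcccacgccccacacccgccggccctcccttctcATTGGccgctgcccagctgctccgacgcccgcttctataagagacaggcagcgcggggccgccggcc
DDC start 1: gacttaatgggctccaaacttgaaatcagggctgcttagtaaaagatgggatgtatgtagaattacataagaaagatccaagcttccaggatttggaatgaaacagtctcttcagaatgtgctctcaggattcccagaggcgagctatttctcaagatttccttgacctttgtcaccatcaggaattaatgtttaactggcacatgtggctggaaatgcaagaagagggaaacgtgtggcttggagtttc
DDC start 2: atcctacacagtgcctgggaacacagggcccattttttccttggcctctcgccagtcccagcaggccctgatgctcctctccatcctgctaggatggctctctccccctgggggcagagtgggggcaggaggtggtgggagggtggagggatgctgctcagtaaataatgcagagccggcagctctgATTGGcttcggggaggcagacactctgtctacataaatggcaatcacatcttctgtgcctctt
The CCAAT match lay 67 bases before the TPH1 start and 63 bases before DDC start 2, and DDC start 1 held none. CCAAT on either strand was found in 32.0% of the 35116 RefSeq promoter windows of this length. None of 4 other motifs, searched on both strands, was found in the 3 windows. They were the E-box CACGTG, held by 6.34% of all windows, the core TGACG of the cAMP response element, held by 21.2%, the TATA box TATAAA, held by 10.7%, and the GC box GGGCGG, held by 42.6%. These matches are a description of the letters and are not evidence of binding.

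TPH1, which commits tryptophan to serotonin, was by far the most abundant transcript of the group. TPH1 lies at chr11:18017555-18046269 (GRCh38, minus strand). In BON-1 cells its level was 1857, 1699 and 1749 CPM (counts per 1000000 counts of a library, after TMM scaling of the library size) with vehicle and 372, 381 and 411 with DOX. The vehicle and DOX libraries were far apart, and the spread within each group was small. The log2 fold change was -2.19 (SE 0.08, n = 3 per group), a level 4.56-fold lower, and 0.636% of the 14625 genes tested in BON-1 cells had a larger absolute change. In QGP-1 cells TPH1 stood at 749, 720 and 799 CPM with vehicle and 632, 526 and 560 with DOX. These groups did not overlap either, but the difference was much smaller, with a log2 fold change of -0.40 (SE 0.08). The fitted difference between the lines in this response was -1.78 (SE 0.12) on the log2 scale. Because these are bulk libraries, fewer TPH1-expressing cells and less TPH1 RNA per cell cannot be told apart. CHGA, a core protein of secretory granules, was at 6535 to 9328 CPM with vehicle and 2705 to 3130 with DOX in BON-1 cells and at 140 to 155 and 154 to 180 CPM in QGP-1 cells. SCG2, another granule protein, was at 2587 to 2829 CPM with vehicle and 3680 to 3689 with DOX in BON-1 cells. The part of either granule marker in the TPH1 result was not tested.

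The rank of TPH1 within each library showed the same contrast without scaling between libraries. By deposited TPM, a value per gene length, TPH1 was at rank 44, 50 and 50 of 25544 genes in the BON-1 vehicle libraries and at rank 263, 237 and 218 with DOX. In QGP-1 cells it ranked 139, 145 and 131 of 25540 genes with vehicle and 138, 157 and 149 with DOX, so that the ranges of rank overlapped there. TPH1 alone held 0.177% to 0.184% of all counts in BON-1 vehicle libraries and 0.0363% to 0.0407% with DOX. On the TPM scale the QGP-1 value turned to a log2 change of 0.33, where the median gene moved by 0.59, and relative to that median TPH1 stood at -0.26. In BON-1 cells TPM gave -2.55 for TPH1 against a median of -0.31. Noncoding RNAs (RN7SK, RN7SL1 and RN7SL2) took up 50.9% to 80.3% of the TPM in each library, and this share differed between libraries.

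TPH2, the neuronal hydroxylase (chr12:71938845-72186618, plus strand), was close to the limit of detection in both lines. It had 14, 23 and 9 counts with vehicle and 25, 23 and 23 with DOX in QGP-1 cells. In BON-1 cells the counts were 24, 23 and 24 with vehicle and 33, 33 and 36 with DOX. The BON-1 groups were separate and higher with DOX, the QGP-1 groups overlapped, and neither difference passed the adjusted p threshold (log2 fold changes of 0.83, SE 0.40, and 0.61, SE 0.51). Per length, TPH1 exceeded TPH2 by 1780-fold to 2960-fold in BON-1 vehicle libraries and by 238-fold to 305-fold with DOX. The corresponding ratio in QGP-1 cells was 1840 to 5990 with vehicle and 1230 to 1650 with DOX, resting on few TPH2 counts. TPH1 therefore remained the predominant hydroxylase transcript in every library.

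**Figure D1:**
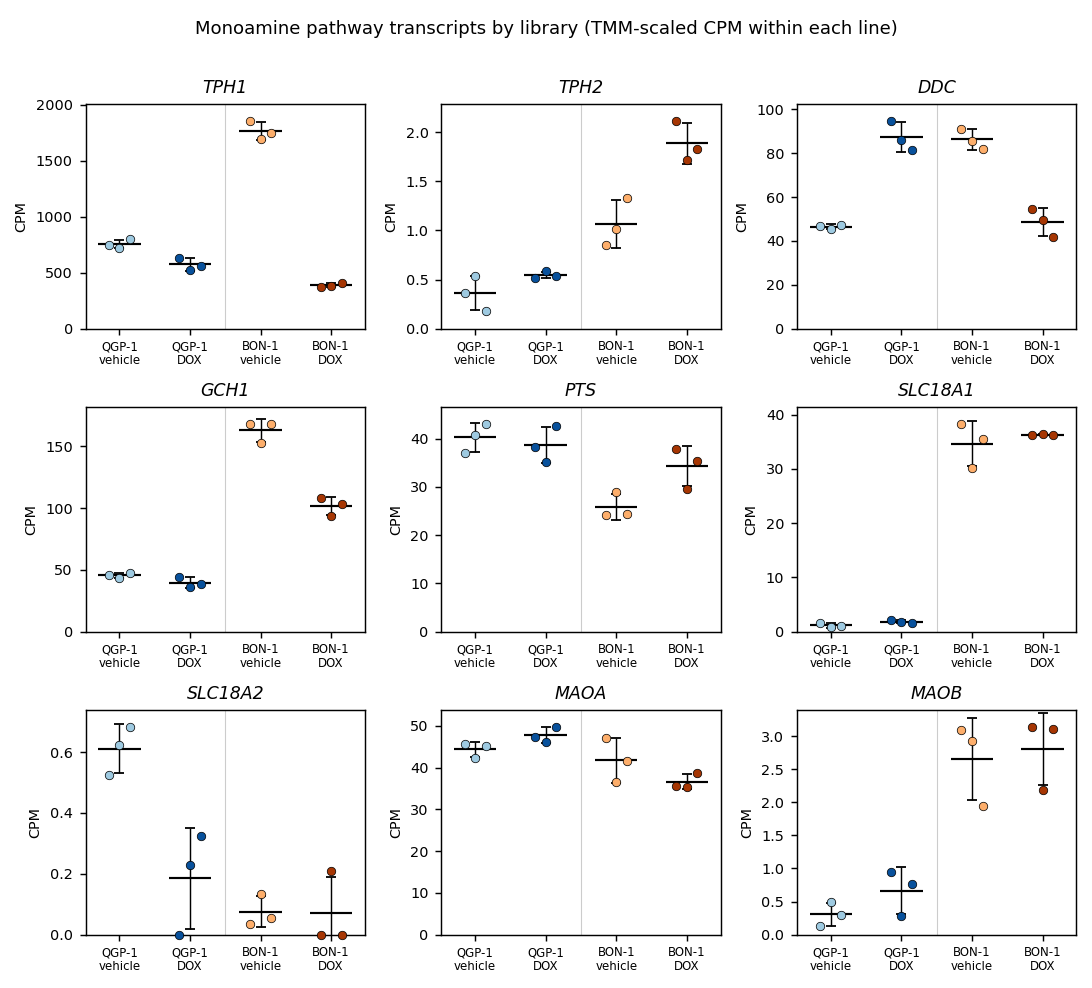
Level of each of the 9 genes in the 12 libraries, in TMM-scaled CPM set within each line, on linear axes from 0. Points are libraries, horizontal lines are means and bars are 1 SD (n = 3), and TPH1 in BON-1 cells and DDC in both lines show vehicle and DOX libraries that stand apart.

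DDC, which makes serotonin from 5-hydroxytryptophan and dopamine from L-DOPA, moved in opposite directions in the lines. It lies at chr7:50458436-50565405 (minus strand). In QGP-1 cells DDC was at 46.6, 45.4 and 47.4 CPM with vehicle and at 94.8, 85.8 and 81.6 with DOX. In BON-1 cells it was at 91.1, 85.8 and 81.8 CPM with vehicle and at 54.6, 49.3 and 41.8 with DOX. Each DOX library of QGP-1 was above all vehicle libraries, and each DOX library of BON-1 was below them. The log2 fold changes were 0.91 (SE 0.08) and -0.83 (SE 0.09), and the fitted difference between them was -1.73 (SE 0.13). Relative to the median gene, TPM gave 0.93 and -0.83 for DDC. DDC-AS1, an antisense gene that overlaps DDC exons, had at most 5 counts in any library, and the strand setting of the counting is not given in the sources used here.

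For the cofactor genes GCH1 and PTS the fitted differences between the lines in DOX response were -0.47 (SE 0.12) and 0.48 (SE 0.15). The PTS difference passed the threshold in only 4 of the 12 fits that left out 1 library. GCH1, GTP cyclohydrolase 1, performs the rate-limiting first step of tetrahydrobiopterin synthesis (chr14:54842008-54902826, minus strand). GCH1 stood at 168, 152 and 168 CPM with vehicle and at 108, 93.6 and 103 with DOX in BON-1 cells. In QGP-1 cells it was at 45.5, 43.6 and 47.3 CPM with vehicle and 44.5, 35.9 and 38.5 with DOX. The BON-1 groups were separate and lower with DOX (log2 fold change -0.68, SE 0.08), while the QGP-1 groups overlapped (-0.20, SE 0.09). Without QGP-1 DOX library 1 the GCH1 value in QGP-1 cells became -0.28 and passed the threshold.

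PTS, 6-pyruvoyltetrahydropterin synthase, acts in the step after GCH1 (chr11:112226367-112269955, plus strand). In BON-1 cells PTS was at 24.2, 28.8 and 24.3 CPM with vehicle and 37.9, 29.6 and 35.4 with DOX. In QGP-1 cells it was at 37.1, 40.7 and 43.1 CPM with vehicle and 38.2, 35.2 and 42.7 with DOX. PTS was thus higher with DOX in BON-1 cells, where the lowest DOX library was just above the highest vehicle library, and the groups overlapped in QGP-1 cells. The log2 fold changes were 0.41 (SE 0.11) and -0.06 (SE 0.09). Without BON-1 DOX library 1 the BON-1 value was 0.33 and no longer passed the threshold, and on the TPM scale it was 0.04, or 0.36 relative to the median gene.

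The vesicular transporters were expressed unequally in the lines. SLC18A1 (VMAT1, chr8:20144855-20183206, minus strand) is the form of endocrine and enterochromaffin cells. It had 38.3, 30.2 and 35.4 CPM with vehicle and 36.2, 36.4 and 36.3 with DOX in BON-1 cells, and 1.65, 0.879 and 0.965 CPM against 2.11, 1.77 and 1.51 in QGP-1 cells. DOX and vehicle libraries overlapped in both lines, with log2 fold changes of 0.07 (SE 0.10) and 0.64 (SE 0.32), and the QGP-1 value passed the threshold without QGP-1 vehicle library 1 (0.96). SLC18A2 (VMAT2, chr10:117241093-117279430, plus strand), the form of monoaminergic neurons and of several other monoamine-storing cells, had 20, 27 and 34 counts with vehicle and 0, 9 and 14 with DOX in QGP-1 cells. These groups did not overlap, but the log2 fold change of -1.75 (SE 0.73) did not pass the threshold with the filter on low counts and did so without it. In BON-1 cells SLC18A2 had 1, 3 and 1 counts with vehicle and 0, 4 and 0 with DOX, which was too few for a test. Per length, SLC18A1 exceeded SLC18A2 by 1.89-fold to 4.23-fold in QGP-1 vehicle libraries, and by 304-fold to 1450-fold in BON-1 vehicle libraries, where SLC18A2 had 1 to 3 counts.

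For the monoamine oxidases no DOX difference passed the threshold in either line, which is a description and not a finding of no change. MAOA (chrX:43654907-43746817, plus strand), which prefers serotonin as substrate, was at 45.8, 42.2 and 45.1 CPM with vehicle and 47.4, 46.0 and 49.8 with DOX in QGP-1 cells. It was at 47.2, 36.5 and 41.6 CPM with vehicle and 35.6, 35.5 and 38.7 with DOX in BON-1 cells. The QGP-1 groups were narrowly separate and the BON-1 groups overlapped, and the log2 fold changes were small, at 0.11 (SE 0.08; 95% interval -0.05 to 0.26) and -0.19 (SE 0.10; 95% interval -0.39 to 0.01). MAOB (chrX:43766610-43882450, minus strand), its neighbor on the X chromosome, had 5, 21 and 15 counts with vehicle and 46, 11 and 33 with DOX in QGP-1 cells. In BON-1 cells it had 87, 66 and 35 counts with vehicle and 49, 42 and 61 with DOX. The groups overlapped in both lines, with log2 fold changes of 1.11 (SE 0.58) and 0.07 (SE 0.30). Per length, MAOA exceeded MAOB by 38.9-fold to 156-fold in QGP-1 vehicle libraries and by 5.58-fold to 9.57-fold in BON-1 vehicle libraries.

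**Figure D2:**
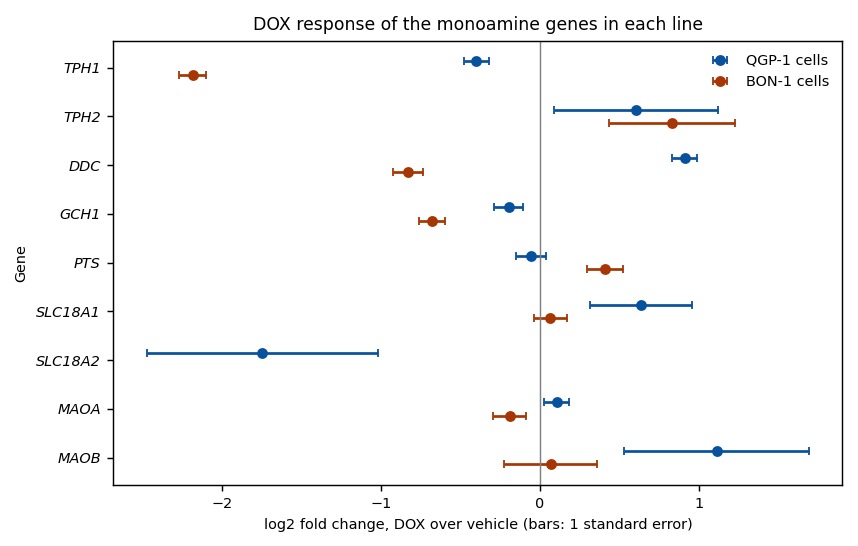
Log2 fold change of DOX over vehicle for each gene (horizontal axis), QGP-1 in blue and BON-1 in brown, with bars of 1 SE from edgeR (n = 3 per group). SLC18A2 had too few counts for a BON-1 value, and the points for TPH1 (-0.40 and -2.19) and DDC (0.91 and -0.83) lie farther apart between the lines than those of GCH1 or MAOA.

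Over the group, 2 of 9 genes passed an adjusted p of 0.05 in QGP-1 cells, with DDC higher and TPH1 lower, where 35.0% of all 15089 genes tested did (17.3% higher and 17.7% lower). In BON-1 cells 4 of 8 tested genes passed, with PTS higher and TPH1, DDC and GCH1 lower, where 35.3% of genes did (17.0% higher and 18.3% lower). Vehicle and DOX libraries did not overlap for 4 of 9 genes in QGP-1 cells and 5 of 8 in BON-1 cells, against 46.7% and 46.3% of all genes. The group had a median log2 fold change of 0.11 in QGP-1 and of -0.06 in BON-1, beside -0.01 for all genes in both. The interaction of line and DOX passed the threshold for 4 of 9 genes, where 16.7% of 16598 genes did, with PTS more positive in BON-1 cells (8.80% of all genes) and TPH1, DDC and GCH1 more negative (7.92%). On the TPM scale, with limma, 5 of the genes passed as higher and 0 as lower in QGP-1 cells (9149 and 89 of all genes), and 0 as higher and 3 as lower in BON-1 cells (34 and 335 of all genes). Since the genes were chosen with these contrasts known, nothing is read from these shares. The PTS difference, 0.48 (SE 0.15), passed in only 4 of the 12 fits that left out 1 library.

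At baseline the BON-1 vehicle libraries held more of most of these transcripts than the QGP-1 vehicle libraries. In 1 fit of the 12 libraries 6 of the 9 genes were higher in BON-1 cells and 2 were lower, where 74.9% of all genes differed (37.5% in each direction). The vehicle libraries of the lines did not overlap for 8 of the 9 genes and for 77.6% of all genes. SLC18A1 had the largest difference, 28.6-fold (log2 4.84, SE 0.18). MAOB (3.02, SE 0.47), GCH1 (1.76, SE 0.09), TPH2 (1.48, SE 0.48), TPH1 (1.15, SE 0.08) and DDC (0.82, SE 0.09) were higher in BON-1 cells as well. PTS was lower in BON-1 cells (-0.72, SE 0.11), SLC18A2 was lower on few counts, and MAOA overlapped (-0.16, SE 0.10). Without BON-1 vehicle library 1 the SLC18A2 call was lost (-2.69) and MAOA passed (-0.28). The lines were grown in different media and sequenced to different depths, and neither can be told apart from the line.

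The order of the transcripts by TPM was TPH1, PTS, DDC, GCH1, MAOA and SLC18A1 in QGP-1 vehicle libraries, with no overlap between neighbors in this order. TPH2, SLC18A2 and MAOB followed at means of 0.0616, 0.0594 and 0.0458 TPM, and their ranges overlapped. In BON-1 vehicle libraries TPH1, at 863 to 1181 TPM, was followed by GCH1, PTS and DDC at means of 53.7, 35.4 and 34.2 TPM. The range of PTS overlapped those of GCH1 and DDC, which did not overlap each other. SLC18A1 (11.2 TPM), MAOA (6.97), MAOB (1.01), TPH2 (0.455) and SLC18A2 (0.0199) came after them, each separate from the next. With DOX the QGP-1 order of the 6 most abundant transcripts was kept, whereas in BON-1 cells PTS (37.4 TPM) came ahead of GCH1 (27.1) with overlapping ranges. Library by library, PTS was above GCH1 with DOX in BON-1 cells (28.8, 27.9 and 55.5 TPM against 20.1, 21.6 and 39.5). With vehicle it was below GCH1 in each BON-1 library (26.6, 47.4 and 32.2 TPM against 45.3, 61.3 and 54.4). TPH1 stayed first in all 4 groups.

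Genes with similar profiles were sought over the 12 libraries by the root mean square difference of log2 CPM after each gene was centered on its own mean. For TPH1 the nearest were RHPN2 (0.341) and SHF (0.344), both rather distant beside a spread of 0.798 for TPH1 itself. DDC was nearest to DDX58 (0.162) and BCL11A (0.193), against a spread of 0.444. GCH1 was nearest to NEK2 (0.108) and PRKD3 (0.127), against a spread of 0.808. The nearest profiles were POC5 and TRAPPC4 for PTS, STT3A and SESN3 for MAOA, PDGFD and RRN3P1 for SLC18A1, TTC25 and P2RX6 for MAOB, ZNF888 and PRR7-AS1 for TPH2, and CPAMD8 and NECTIN4 for SLC18A2. The libraries share line and treatment, so many genes share part of each profile.

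The surrounding pathway was read from 59 further genes, of which 33 were tested in QGP-1 and 30 in BON-1 cells with edgeR's quasi-likelihood test and Benjamini-Hochberg adjustment over all genes. In QGP-1 cells 3 rose and 14 fell, with a median log2 fold change of -0.37. In BON-1 cells 4 rose and 17 fell, with a median of -0.28, and without BON-1 vehicle library 1 the number that fell was 9. Limma on log2(TPM + 1) gave 13 higher and 1 lower in QGP-1 cells, where the median gene moved by 0.59, and 0 higher and 5 lower in BON-1 cells, where it moved by -0.31. The edgeR shares, 51.5% and 70%, stood beside the 35.0% and 35.3% of all genes. The plot of log2 fold changes by role shows that most points lie below 0 in both lines.

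Among the cofactor genes, GCHFR, the feedback regulator of GCH1, fell in both lines, with log2 fold changes of -0.82 (SE 0.23, adjusted p = 0.0139) in QGP-1 and -0.88 (SE 0.19, adjusted p = 0.000464) in BON-1 cells. The QGP-1 call for GCHFR was lost without QGP-1 vehicle library 1 (-0.73) or DOX library 2 (-0.60), and on the TPM scale, where limma gave -0.10 (adjusted p = 0.475), or -0.70 relative to the median gene. SPR, which completes cofactor synthesis, fell and QDPR, which recycles the cofactor, rose in QGP-1 cells. PCBD2, a dehydratase of cofactor recycling, and DNAJC12, a chaperone partner of the aromatic amino acid hydroxylases, rose in BON-1 cells. PDXK, which activates vitamin B6 for decarboxylases such as DDC, rose in QGP-1 and fell in BON-1 cells. All 4 genes of aromatic amino acid uptake (SLC7A5, SLC7A8, SLC3A2 and SLC16A10) fell in BON-1 cells, where 18.3% of all genes fell. Vehicle and DOX libraries overlapped for SLC3A2. Of these 4 genes SLC16A10 alone, 1 gene, fell in QGP-1 cells. Fits that left out 1 library were not read singly for these 4 genes.

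Among the genes of later breakdown, ALDH2 and ALDH1A1 fell in both lines. ALDH2, which oxidizes the aldehydes left by monoamine oxidases, was at 2.75, 4.60 and 2.67 CPM with vehicle and 0.601, 0.710 and 1.28 with DOX in QGP-1 cells, with no overlap between groups. Its log2 fold change was -1.95 (SE 0.33, adjusted p = 0.000483) there and -0.49 (SE 0.13, adjusted p = 0.00314) in BON-1 cells, and the BON-1 value no longer passed without BON-1 vehicle library 1 (-0.32) or with limma on the TPM scale (-0.75, adjusted p = 0.191, or -0.44 relative to the median gene). ALDH1A1 fell in both lines, with log2 fold changes of -0.74 (SE 0.07, adjusted p = 4.68e-06) and -0.90 (SE 0.10, adjusted p = 3.66e-08), although on the TPM scale the QGP-1 value was 0.00103, or -0.59 relative to the median gene. HNMT, which methylates histamine, fell by 1.16 (SE 0.09, adjusted p = 7.87e-07) in QGP-1 cells and was at 0.12 (SE 0.12, adjusted p = 0.456) in BON-1 cells. SLC29A4, a plasma membrane monoamine transporter, fell by 0.93 (SE 0.17, adjusted p = 8.23e-05) in BON-1 cells, a call lost with limma on the TPM scale (-0.90, adjusted p = 0.0967, or -0.59 relative to the median gene). SLC29A4 also fell in QGP-1 cells, with a log2 fold change of -0.48 (SE 0.13, adjusted p = 0.00956). That call was lost without QGP-1 vehicle library 1 (-0.37), and the TPM value was 0.20, or -0.39 relative to the median gene. SLC22A3 fell in BON-1 cells on 25 to 32 counts with vehicle.

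**Figure D3:**
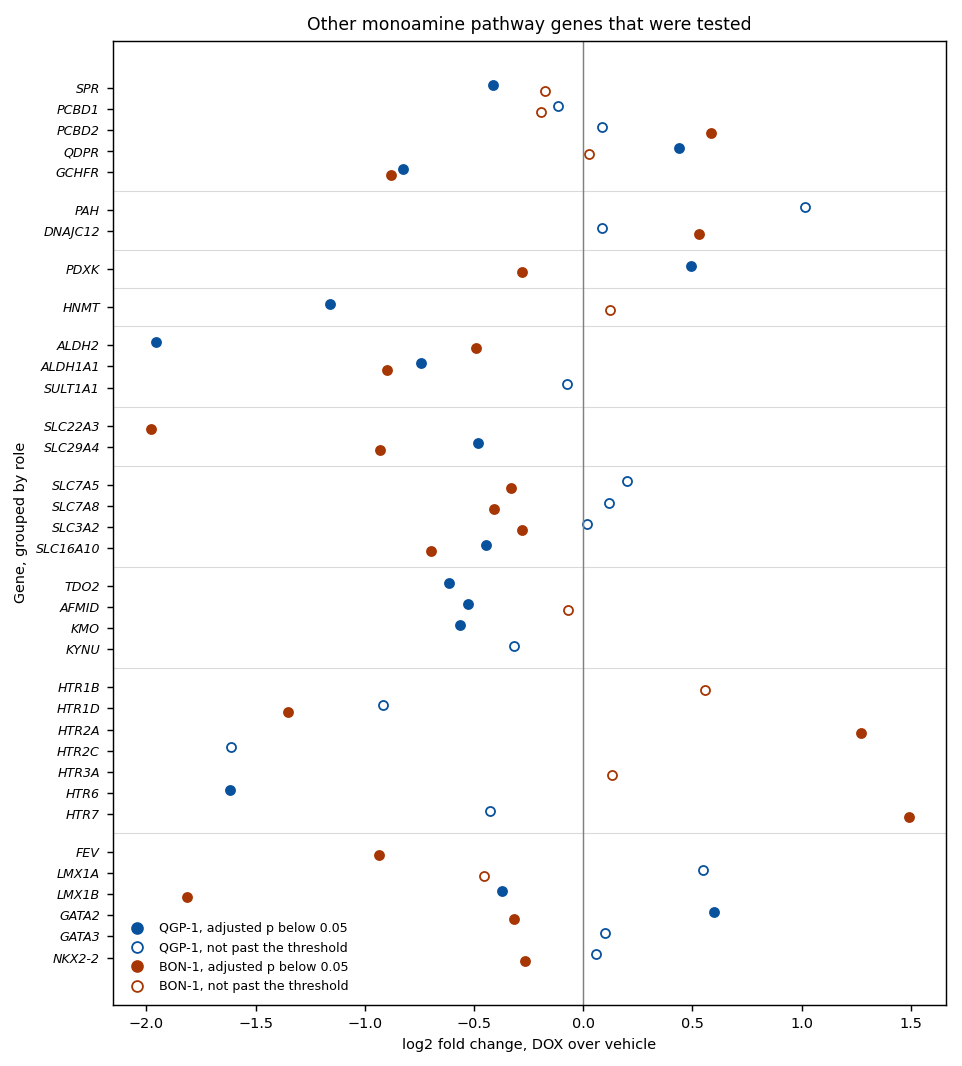
Log2 fold change of DOX over vehicle (horizontal axis) for the tested genes around the pathway, grouped by role from cofactor supply at the top to transcription factors at the bottom. Filled points passed an adjusted p of 0.05 in edgeR, and open points did not. Genes not reported here are not plotted, and most filled points of either line lie below 0.

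Of the transcription factors of serotonin-producing cells, 4 of the 5 tested in BON-1 cells fell, where GATA3 was not tested and 18.3% of all genes fell. For GATA2, 1 of these 4, vehicle and DOX libraries overlapped. Of the 5 tested in QGP-1 cells, where FEV was not tested, 1 rose and 1 fell, beside 17.3% and 17.7% of all genes. These are few genes, and nothing is read from the counts. LMX1B, which maintains serotonergic identity in neurons, was at 25.6, 23.2 and 20.9 CPM with vehicle and 6.29, 7.75 and 5.75 with DOX in BON-1 cells. Its log2 fold change was -1.82 (SE 0.15, adjusted p = 1.92e-10), and in QGP-1 cells it was -0.37 (SE 0.13, adjusted p = 0.0386), a call lost in 4 of 6 fits that left out 1 library, namely any vehicle library (-0.37 to -0.38) or DOX library 3 (-0.22), and its QGP-1 value on the TPM scale was 0.21, or -0.39 relative to the median gene. FEV, the ETS factor that acts in serotonergic neurons and enterochromaffin cells, was at 19.9, 20.5 and 19.6 CPM with vehicle and 9.63, 13.6 and 8.09 with DOX in BON-1 cells. It fell by 0.93 (SE 0.16, adjusted p = 2.64e-05) there, while the QGP-1 libraries held 0 FEV counts with vehicle, which allows up to 3 counts per library, and 1 to 6 with DOX. GATA2 rose in QGP-1 cells by 0.60 (SE 0.13, adjusted p = 0.00312) and fell in BON-1 cells, at -0.32 (SE 0.10, adjusted p = 0.0174), where 3 of 6 fits that left out 1 library lost the call: -0.29 without BON-1 vehicle library 1 or 2, and -0.22 without BON-1 DOX library 3. Limma on the TPM scale lost the BON-1 call for GATA2 too (-0.63, adjusted p = 0.293, or -0.32 relative to the median gene). The QGP-1 value for GATA2 on that scale was 0.79, or 0.19 relative to the median gene. NKX2-2 fell in BON-1 cells and LMX1A did not pass in either line. Fits that left out 1 library were not read singly for NKX2-2.

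Serotonin receptors moved in both directions in BON-1 cells. HTR2A, a receptor coupled to Gq, was at 60.4, 56.1 and 63.0 CPM with vehicle and 136, 137 and 160 with DOX. It rose by 1.27 on the log2 scale (SE 0.08, adjusted p = 2.42e-12), and HTR7, coupled to Gs, rose by 1.49 (SE 0.21, adjusted p = 2.92e-06). HTR7 was at 2.66, 2.70 and 3.28 CPM with vehicle and at 8.09, 7.49 and 8.60 with DOX. With limma on the TPM scale neither passed, with values of 0.84 for HTR2A (adjusted p = 0.129) and 0.62 for HTR7 (adjusted p = 0.305), or 1.16 and 0.93 relative to the median gene. HTR1D, coupled to Gi, fell by 1.35 (SE 0.16, adjusted p = 2.37e-07). In QGP-1 cells HTR1D was at -0.92 (SE 0.46, adjusted p = 0.1385) on at most 48 counts, and passed without QGP-1 DOX library 1 (-1.315). Its interaction of line and DOX did not pass (-0.43, SE 0.38, adjusted p = 0.479), so a difference between the lines was not shown. In QGP-1 cells HTR6 fell on at most 70 counts per library, and HTR2A had 0 counts in the vehicle libraries and 6 to 19 with DOX. HTR7 did not exceed 19 counts there and did not pass (-0.43, SE 0.55, adjusted p = 0.589). Of 17 receptor genes listed, 4 were tested in QGP-1 and 5 in BON-1 cells.

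The kynurenine branch, which competes with serotonin synthesis for tryptophan, had transcripts of TDO2, KMO and KYNU in QGP-1 cells and almost none of them in BON-1 cells. TDO2, tryptophan 2,3-dioxygenase, had 296, 340 and 433 counts with vehicle and 315, 175 and 211 with DOX in QGP-1 cells and fell by 0.61 (SE 0.16, adjusted p = 0.00915). KMO and AFMID fell in QGP-1 cells as well, although vehicle and DOX libraries overlapped for KMO. Fits that left out 1 library were not read singly for KMO or AFMID. KYNU, at -0.32 (SE 0.16, adjusted p = 0.145), did not pass. TDO2 and KMO had 0 counts in all 6 BON-1 libraries, which allows up to 3 counts per library, and KYNU had 2 counts in 1 of them. KMO and KYNU in both lines, and TDO2 in BON-1 cells, were chosen for description after their values were seen.

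**Figure D4:**
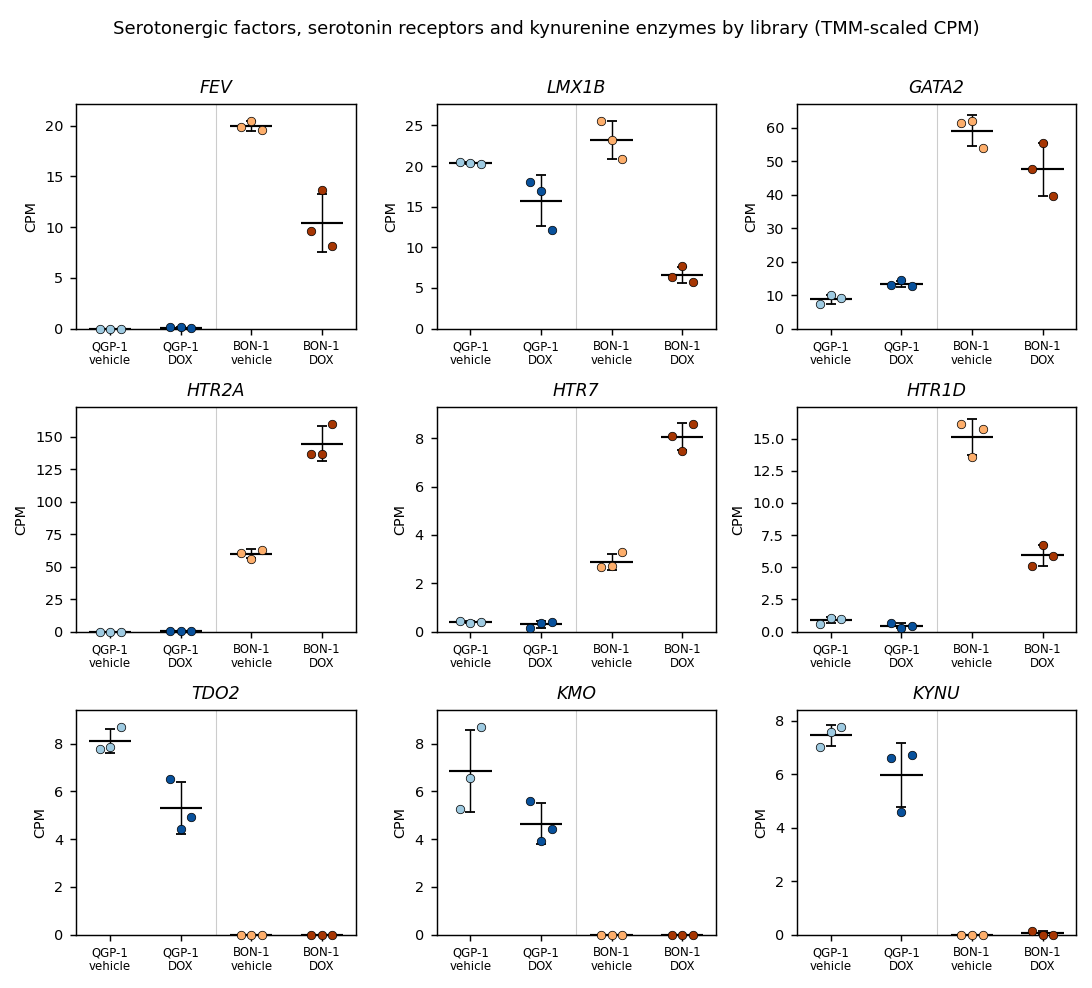
Levels of serotonergic transcription factors, serotonin receptors and kynurenine enzymes in the 12 libraries, in TMM-scaled CPM within each line on linear axes from 0, with means and bars of 1 SD (n = 3). LMX1B, FEV and HTR1D were lower and HTR2A and HTR7 higher with DOX in BON-1 cells, and TDO2 and KMO were at 0 counts in every BON-1 library.

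The response of 13 of the 37 pathway genes tested differed between the lines in the interaction of line and DOX, 6 with a more positive and 7 with a more negative value in BON-1 cells, a share of 35.1% beside 16.7% of all genes. HNMT differed by 1.29 (SE 0.16, adjusted p = 3.93e-06), ALDH2 by 1.47 (SE 0.32, adjusted p = 0.00216) and HTR7 by 1.93 (SE 0.47, adjusted p = 0.00613). LMX1B differed by -1.43 (SE 0.21, adjusted p = 3.17e-05), so that its lower level with DOX was more marked in BON-1 cells. FEV and HTR2A are among the 7 more negative genes (adjusted p = 0.00306 and 0.00339), but neither was tested within QGP-1 cells. Both their calls and their fitted sizes rest on QGP-1 vehicle libraries at 0 counts, and the sizes are not bounds. HTR2A itself was higher with DOX in BON-1 cells (log2 fold change 1.27), so nothing is read from its negative interaction value.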

How the data were processed

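Stranded mRNA libraries (TruSeq kit) were aligned by the authors with STAR to the human genome (GRCh38, also named hg38 in the submitters' processing notes), and raw gene counts were deposited without normalization for each line. The TPM values that the authors deposited keep a fixed ratio to the counts of each gene, so they are per gene length and scaled within a library; how lengths were set and how reads were counted, including the use of strand, are not given in the sources used here. The authors compared groups with DESeq2. Each column was matched to its library by name.

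The count test was edgeR 4.0.16 (R 4.3.3) after filterByExpr removed low counts, with TMM, a quasi-likelihood fit and Benjamini-Hochberg adjustment over all genes tested, at an adjusted p below 0.05 without a minimum fold change. Vehicle and DOX were compared within each line, 3 against 3, and the baseline and the interaction came from 1 fit of 12 libraries. The SE is the log2 fold change divided by the square root of F. The extraction protocol states triplicate cultures, and p-values measure the spread between them. Depth (15981954 to 50525926 counts) makes counting error small for abundant genes and limiting for TPH2, SLC18A2 and MAOB. Replicates differed by more than sampling noise (chi-square per gene 5.92 to 29.7). The code was run on simulated counts with 200 genes changed 2-fold. The QGP-1 comparison made 173 calls, 17 of them false, and recovered 156 of 197 changed genes tested. The BON-1 comparison made 170 calls, 8 of them false, and recovered 162 of 197. The baseline and the interaction each made 153 calls, 9 of them false, and recovered 144 of 196 and 144 of 198. Gene positions came from GENCODE v44 and promoters from RefSeq.

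The genes, the lists and the tests were chosen with earlier results of these data known. All 9 genes are named. Of the other pathway genes, values are given for at most 6 per comparison, those with the largest absolute change past the threshold and a mean of at least 1 CPM, for the same genes in the other line, and for genes that the text marks as chosen after their values were seen; the rest are counted or named without values, apart from count ranges for SLC22A3 and HTR6 and values for GATA2 in BON-1 cells. Marker genes were COL1A1, COL1A2 and DCN for fibroblasts, PTPRC and HBB for blood, KRT19, CFTR and SOX9 for duct (KRT19 and SOX9 detected in both lines, CFTR at most 20 counts), and PRSS1, CPA1 and CELA3A for acinar cells (PRSS1 detected in both lines, CPA1 at most 28 and CELA3A at most 5 counts). Some pathway genes enter the counts but are not reported here by name. Alternatives were DESeq2 1.42.0, library size in place of TMM, other count filters, the replicate block, other sample choices, limma 3.58.1 on log2(TPM + 1) where the mean TPM was 1 or more, a minimum absolute log2 fold change of 1, raw counts in place of TPM for the ratios between genes, CPM in place of TPM for the order of genes, and leaving out each library.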

Additional observations from a re-analysis of the deposited data

Results flagged for a closer look

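For DDC each DOX library was above all vehicle libraries in QGP-1 cells and below them in BON-1 cells, a fitted difference between the responses of -1.73 on the log2 scale (BON-1 minus QGP-1). It is given as a description and was not tested independently, since DDC was chosen with the contrast known.

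The response to DOX differed between the lines by the interaction in edgeR for 7 pathway genes whose values were given. HNMT (1.29, adjusted p = 3.93e-06), ALDH2 (1.47, adjusted p = 0.00216) and HTR7 (1.93, adjusted p = 0.00613) were more positive in BON-1 cells. LMX1B (-1.43, adjusted p = 3.17e-05) and GATA2 (-0.91, adjusted p = 0.000786) were more negative there, as were FEV (-5.56, adjusted p = 0.00306) and HTR2A (-4.87, adjusted p = 0.00339). The calls and sizes for FEV and HTR2A depend on QGP-1 vehicle libraries with 0 counts, and neither gene was tested within QGP-1 cells. HTR2A was higher with DOX in BON-1 cells (log2 fold change 1.27).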

How the results depend on the processing

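DESeq2 kept all 24 counts within 1.5 times and changed no direction or call in the 84 gene values recomputed with it. With a minimum absolute log2 fold change of 1, QGP-1 cells had 183 genes higher and 360 lower, 0 and 0 of the 9 monoamine genes, and 0 and 3 other pathway genes; BON-1 cells had 272 and 447, 0 and 1, and 2 and 3; the baseline had 3613 and 3118 genes and 1 monoamine gene lower; the interaction had 386 and 293 genes, 0 monoamine genes higher, and 3 and 3 other pathway genes. Library size in place of TMM left 0 monoamine genes higher in the interaction. Without the count filter QGP-1 cells had 2 monoamine genes lower and 5 other pathway genes higher. A minimum of 10 counts left 1 monoamine gene lower and 12 other pathway genes higher and 6 lower at baseline, where fewer genes were tested. With both lines in 1 fit, QGP-1 cells had 2 monoamine genes and 5 other pathway genes higher. Limma on log2(TPM + 1) gave 9149 genes higher and 89 lower in QGP-1 cells (monoamine genes 5 and 0, other pathway genes 13 and 1) and 34 and 335 in BON-1 cells (0 monoamine genes higher, other pathway genes 0 and 5). It turned TPH1 (0.33), GCH1 (0.47), PTS (0.65), ALDH1A1 (0.00103), LMX1B (0.21) and SLC29A4 (0.20) to positive values in QGP-1 cells, where the median gene moved by 0.59, and SLC18A1 (-0.26) and HNMT (-0.19) to negative values in BON-1 cells, where it moved by -0.31. Leaving out 1 library gave 1 to 2 monoamine genes higher and 1 to 2 lower in QGP-1 cells, 0 to 1 higher in BON-1 cells, 0 to 1 higher in the interaction, and 9 to 17 other pathway genes lower in BON-1 cells, with 9 without BON-1 vehicle library 1. It spanned 0 for values that were not called: PTS in QGP-1 cells (-0.14 to 0.00769), SLC18A1 (-0.0323 to 0.15) and MAOB (-0.11 to 0.21) in BON-1 cells, and in the interaction TPH2 (-0.17 to 0.57), SLC18A2 (-2.61 to 2.46), MUC1 (-0.28 to 0.38) and GCHFR (-0.37 to 0.0735). Raw counts, which are not per length, in place of TPM gave ratios of MAOA to MAOB of 87.0 to 349 in QGP-1 and 12.5 to 21.4 in BON-1 vehicle libraries, and moved 7 of the 10 ratios between genes by more than their spread. By CPM, PTS came at place 5 rather than 2 in QGP-1 vehicle libraries. With the replicate block 1 monoamine gene was lower at baseline, and TPH2 (1.48) and SLC18A2 (-3.65) lost their baseline calls. Same-numbered vehicle and DOX libraries correlated at -0.13, 0.22 and 0.13 in QGP-1 and -0.09, -0.05 and 0.12 in BON-1 cells, so the numbers did not pair them, and no other count of calls moved by over 1.5 times. Other causes were not tested. Depth limits TPH2, SLC18A2 and MAOB, at 0 to 87 counts.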

Other observations

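Several genes at the edges of the monoamine pathway had few or no counts in these lines. They were chosen after their values were seen. TH and DBH, which act in dopamine and noradrenaline synthesis, reached at most 8 and 6 counts in any library. SLC6A4, the plasma membrane serotonin transporter, reached at most 9. HDC, the histamine-forming decarboxylase, reached at most 1 count, and ASMT and IDO1 had 0 counts in all 12 libraries, which allows up to 3 counts in each.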
